A study of Danio rerio with 12 samples.

Results

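Among 12 RNA-seq libraries of whole 5-day-old zebrafish, 3 had a scaled count of the trypsin gene try (ENSDARG00000042993) below 15000, and the other 9 lay above it. These 3 were control 3 (9930), 1 ppm 3 (10986) and 3 ppm 1 (13768). The nearest libraries on the other side of the threshold were control 1 (18385) and 10 ppm 3 (19522). The libraries were therefore chosen by a measured value, and everything that sets these 3 against the other 9 is given as a description without a test. All 12 held F1 embryos of strain EK, taken 5 days after fertilisation, and the labels give no other genotype or allele. The parents were raised on food with methylmercury (MeHg) at 0 ppm (control), 1 ppm, 3 ppm or 10 ppm for their whole lives. There were 3 libraries per diet, each made from a pool of 5 whole embryos. Nothing in the labels ties a pool to a clutch or a pair of parents, so whether pools are independent replicates of a diet is not known. The p-values weigh differences and slopes only against the variation between these pools.

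The exocrine pancreas makes up most of the pancreas. Its acinar cells build digestive enzymes on the rough endoplasmic reticulum, store many of them as inactive zymogens in granules and release them into the gut. Trypsin activates the other pancreatic zymogens there. In zebrafish the yolk is largely used up around the age studied, and the gut opens and feeding begins. The labels do not say whether the embryos had been fed.

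Depth, recovered from the deposited values, was 5.63 to 11.85 mega-fragments over the 12 pools. In mega-fragments it was 7.42 in control 3, 5.63 in 1 ppm 3, the shallowest pool, and 8.78 in 3 ppm 1. The scaled totals that the comparisons rest on were closer to each other, at 6.17 to 6.74 mega-units. Pools also differed in daily clock and stress genes. The clock repressor gene per1b had scaled counts of 721 in control 3 and 550 in 1 ppm 3 but 49.4 in 3 ppm 1, while the other 9 pools ranged from 52.1 to 864 with a median of 67.1. Another clock repressor gene, nr1d1, had 967, 571 and 6.63 in the same order, against 6.61 to 1694. The glucocorticoid target gene fkbp5 had 69.9, 66.7 and 493, against 63.4 to 2166. The low-try pools were thus on both sides of the clock split, and the part of clock or stress state in the enzyme levels was not tested. All these are whole-embryo values, in which fewer cells of a type and less RNA per cell cannot be told apart.

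In the other 9 pools try had scaled counts of 18385 and 26344 in control 1 and 2 and of 22478 and 33565 in 1 ppm 1 and 2. It had 25073 and 23463 in 3 ppm 2 and 3, and 26471, 22856 and 19522 in 10 ppm 1 to 3. The highest pool was 3.38 times the lowest over all 12, and 1.83 times within the 9. The 3 low-try pools came from 3 different diets, so the threshold itself made each the lowest of its own diet. No 10 ppm pool was among them. The second marker, the chymotrypsinogen gene ctrb1 (ENSDARG00000090428), had 7797 in control 3, 9233 in 1 ppm 3 and 9827 in 3 ppm 1. In the other pools it ranged from 13687 (control 1) to 26802 (1 ppm 2), with a median of 18358. Choosing the 3 lowest pools by ctrb1 picked the same ones.

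**Figure D1:**
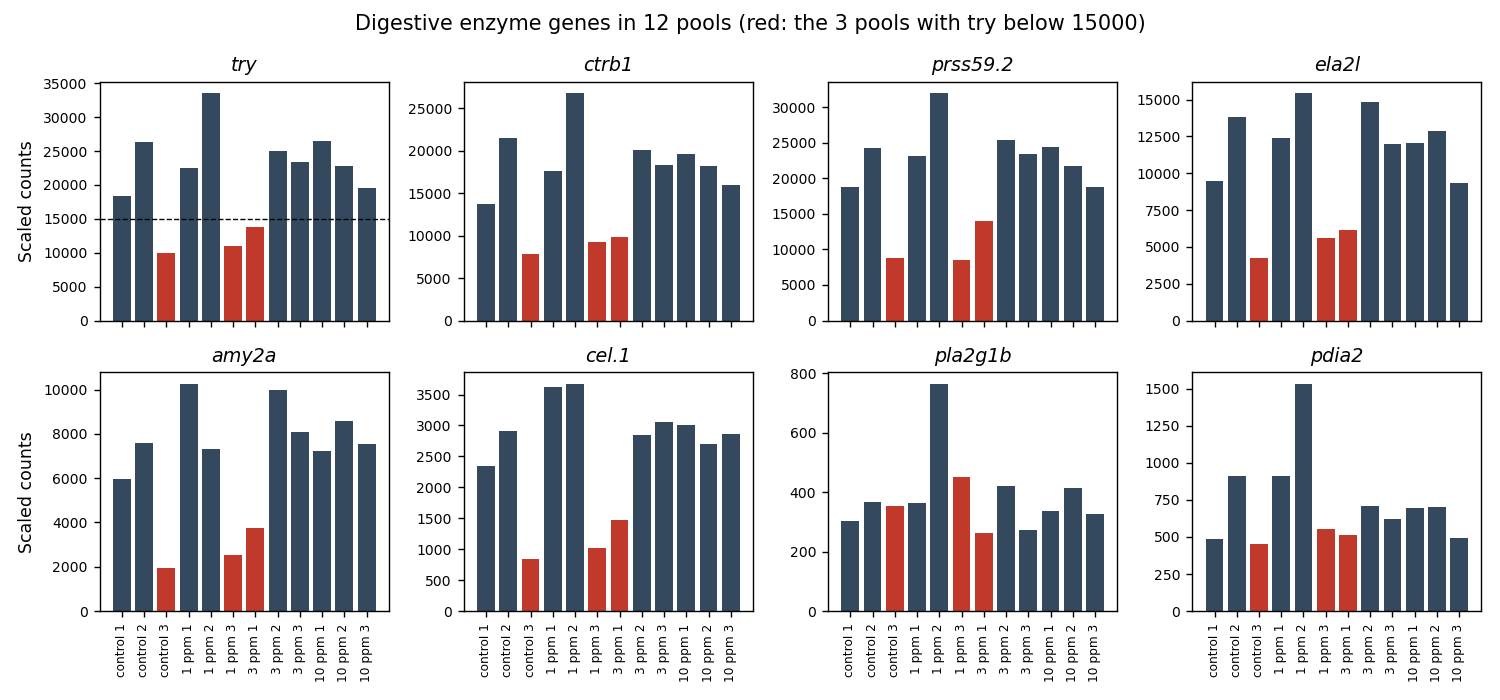
Scaled counts (vertical axes, each from 0) of 8 digestive enzyme genes in each of the 12 pools (horizontal axis), with the 3 pools of low try in red and the threshold of 15000 as a dashed line in the first panel. The red bars are below every other bar for try, ctrb1, prss59.2, ela2l, amy2a and cel.1, but not for pla2g1b and pdia2.

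The low level was shared by nearly the whole set of abundant pancreatic enzymes. Of 42 gene symbols listed for exocrine pancreas products, 26 had a row and 24 reached a mean scaled count of 10, and 19 of these 24 (79.2%) were lower in all 3 low-try pools than in any of the other 9. Over all 18390 genes tested, 503 (2.74%) lay below in that way and 524 (2.85%) above, or 5.58% in either direction. Because the libraries were picked on a member of the list, nothing further is read from that share. All 17 members with a mean of at least 1000 were among the 19. In FPKM 17 members lay below, since cpa5 and sycn.1 overlapped there. The enzyme list as a whole took 1.02%, 1.14% and 1.53% of the scaled total in control 3, 1 ppm 3 and 3 ppm 1. In the other pools that share was 2.06% to 3.68%, with no overlap, but the sum includes try, by which the pools were chosen.

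The trypsin gene try came first. In FPKM, which corrects for length, try was the most abundant member of the list in each of the 12 pools. Its level was 2679 to 3974 FPKM in the low-try pools and 4972 to 9216 in the others, where it ranked between 7th and 20th of all genes, against 37th to 78th. The adjacent genes prss59.1 and prss59.2 encode further trypsin-like serine proteases. The gene prss59.2 had scaled counts of 8756, 8495 and 13942 in control 3, 1 ppm 3 and 3 ppm 1, against 18706 to 31964 (median 23378). For prss59.1 they were 6766, 6578 and 8697, against 11723 to 22965 (median 17485). In both genes 3 ppm 1 was the highest of the 3 low-try pools and still below the other 9. Fragments of such similar genes may have been divided between copies by the counting, so their separate levels are uncertain.

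Chymotrypsinogens and elastases, which cut proteins at other residues, had the same order of groups. Beside ctrb1 in the RefSeq gene order lie ctrb.2 and then ctrb.3. The first had 2837, 3264 and 4894 in control 3, 1 ppm 3 and 3 ppm 1, against 5661 to 9311 (median 6918). The second had 4362, 5185 and 6649, against 7697 to 14743 (median 9806). The chymotrypsin-like gene ctrl had 2957, 3247 and 3358, against 4402 to 7549 (median 5546), so its 3 low values were close together and its gap to the nearest other pool was 1.31 times. Among the elastase genes, ela2l had 4255, 5611 and 6125, against 9342 to 15440 (median 12411). Its neighbour ela2 had 3132, 4285 and 5097, against 5883 to 10987 (median 7994), and ela3l had 3310, 3730 and 5419, against 6287 to 9620 (median 8190). In these 3 elastase genes control 3 was the lowest pool of all 12 and 3 ppm 1 the third lowest. The minor elastase genes cela1.2 and cela1.5, with means of 27.3 and 21.9, overlapped between the groups, and cela1.4 did not (its highest low-try value was 105 and the lowest of the others 109.8).

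Carboxypeptidases, which remove residues from the ends of peptides, varied more. The gene cpb1 had 2520, 2882 and 3892 in control 3, 1 ppm 3 and 3 ppm 1, against 5027 to 11256 (median 7266). The gene cpa1 had 387, 455 and 1015, against 1361 to 2164 (median 1765), and its neighbour cpa5 had 3797, 3436 and 6669, against 6709 to 13833 (median 9228). For cpa5 the 3 ppm 1 pool was almost level with 3 ppm 3 (6709), a gap of 1.01 times and the narrowest among the 19 genes, and in FPKM the groups overlapped (518 to 1030 against 1017 to 2093). The gene cpa4 had 850, 1258 and 1139, against 1644 to 3757.

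Starch- and fat-digesting enzymes included the widest gaps. The amylase gene amy2a had 1965, 2538 and 3742 in control 3, 1 ppm 3 and 3 ppm 1, against 5952 to 10268 (median 7581). Its gap of 1.59 times was the widest in the list. The carboxyl ester lipase gene cel.1 had 848, 1026 and 1474, against 2340 to 3677 (median 2908), a gap of 1.59 times as well. A second amylase gene, amy2al2, had 1662, 1219 and 1635, against 1899 to 4097, a narrower gap of 1.14 times.

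Other members that overlapped included the phospholipase A2 gene pla2g1b and the pancreatic protein disulfide isomerase gene pdia2. For pla2g1b the low-try pools had 352, 450.5 and 262, and the others 274 to 765 with a median of 362. Those values lay on both sides of the median. For pdia2 they were 453, 552 and 512, against 483 to 1533 (median 702.5), so control 3 alone was below all the others. The zymogen granule protein gene sycn.1 came close to overlap, with 450, 526.5 and 511 against 566 to 1134, and overlapped in FPKM (360 to 490.3 against 454.5 to 949). Members under the minimum mean were cela1.3 (mean 3.02) and amy2al1 (mean 3.37).

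The digestive enzyme genes zgc:92041 and cell, outside the list, had the same order of groups. The gene zgc:92041, an elastase-like gene in the gene names table, had 7816, 8052 and 10184 in control 3, 1 ppm 3 and 3 ppm 1, against 12291 to 21148 (median 17263). The lipase gene cell had 677, 743 and 811, against 839 to 2497 (median 1508). Both were added after their values were seen. The elastase-like gene si:ch73-44m9.5, also outside the list, overlapped between the groups (63.6, 104 and 95.8, against 89.6 to 274).

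Scaled counts of the other enzymes were also given as a percentage of that of try in the same pool. The choice of pools fixes a low denominator in 3 of them, so these ratios are a description only. The levels themselves are not per length, so these percentages compare pools and not genes. Among the 20 members other than try with a mean of at least 100, 19 overlapped between the groups on this measure, 1 lay below and 0 above. Of all 8596 genes with such a mean, 78.5% lay above and 0.0116% (1 gene) below, so the count among the enzymes is read only as a description. The steadiest was ctrb1, at 78.5%, 84.0% and 71.4% of try in control 3, 1 ppm 3 and 3 ppm 1 and 74.2% to 82.0% in the others, with a highest value 1.18 times the lowest. The 1 below was cel.1, at 8.54%, 9.34% and 10.7% of try against 10.95% (1 ppm 2) to 16.1% (1 ppm 1). The ratio of cpa1 was 3.90% and 4.14% in control 3 and 1 ppm 3, below all other pools, but 7.37% in 3 ppm 1, within their range of 5.17% to 9.63%. That of amy2a was below the other pools in control 3 alone (19.8%, against 21.8% to 45.7%). The ratio of pla2g1b varied most, by 3.51 times, and was 3.55% and 4.10% in control 3 and 1 ppm 3, above all other pools, and 1.90% in 3 ppm 1. Ratios of sycn.1 (4.53%, 4.79% and 3.71%, against 2.44% to 4.22%) and pdia2 (4.56%, 5.03% and 3.72%, against 2.54% to 4.57%) lay toward the upper end in the same pools. In 3 ppm 1 the ratios of amy2a, cpa1 and pla2g1b lay within the range of the other 9 pools.

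**Figure D2:**
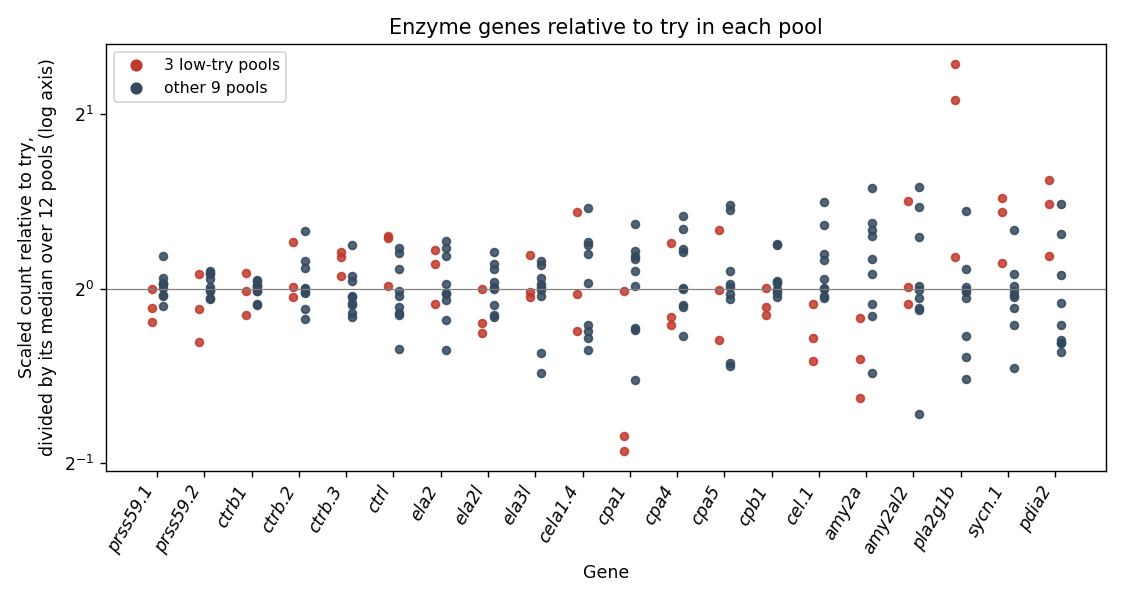
Scaled count of 20 enzyme genes relative to try in the same pool, divided by each gene's median over the 12 pools (vertical log axis), with the 3 low-try pools as red points and the other 9 as dark points. The points of ctrb1 lie closest together and those of pla2g1b are spread most, and only for cel.1 are the 3 red points below all dark ones.

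Whether the enzymes also moved with try was then asked within the 9 other pools. The threshold kept these pools and so narrowed the range of try, but the choice of libraries did not use their order. The slope is the change in log2(scaled count + 1) of a gene for each doubling of try, so that 1 means in proportion. All 23 tested members other than try had a positive slope, from 0.14 to 1.76 with a median of 0.98, against a median of 0.00 over the 18389 genes tested. With limma, 0 genes passed adjustment (0.0%), 1372 (7.46%) had an unadjusted p under 0.05, and limma-voom on recovered fragments called 0. Of the 23 members, 17 had an unadjusted p under 0.05 with a positive slope, as did 617 of all genes (3.36%), and limma adjusted p-values over the whole table ranged from 0.122 to 0.940. The median slope of the list was 0.89 with diet in the model, 0.91 with per1b in the model and 0.99 without the 2 pools farthest from the median of try. Among the 9, per1b was high only in control 2 and 1 ppm 2 (864 and 549, against 52.1 to 78.6). Their try was 26344 and 33565, while 10 ppm 1 had 26471 with low per1b. With per1b in the model 557 genes had an unadjusted p under 0.05 with limma, not 1372. That count also moved without per1b in the model, to 873 without the 2 pools farthest from the median of try and 2166 without control 1. Both pools of high per1b had try above the median of the 9 (23463). Clock state and try level are thus partly confounded in these pools, and the part of clock state in the slopes was not tested.

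Single enzyme genes had different slopes, none of which passed. Slopes near 1 were found for ctrb1 (1.04, SE 0.20; limma adjusted p = 0.195) and prss59.1 (1.09, SE 0.21; limma adjusted p = 0.195), in which 1 ppm 2 was the highest of the 9 pools and control 1 the lowest. The carboxypeptidase gene cpb1 had 1.25 (SE 0.21; limma adjusted p = 0.122), cela1.4 had 1.76 (SE 0.29; limma adjusted p = 0.122) and pdia2 had 1.75 (SE 0.29; limma adjusted p = 0.122). For pdia2 the value in 1 ppm 2 was 1533 and those of the other 8 pools were 483 to 909. The slope of pla2g1b was 1.27 (SE 0.33; limma adjusted p = 0.476), and without 1 ppm 2 it was 0.43. At the low end were amy2a (0.14, SE 0.31; limma adjusted p = 0.940) and cpa1 (0.28, SE 0.28; limma adjusted p = 0.848). Without 1 ppm 2 the slope of cpa1 was 0.0322, and without control 1 that of amy2a was -0.28. The slope of cel.1 was 0.52 (SE 0.23; limma adjusted p = 0.656). So amy2a, with the widest gap between the 3 pools and the rest, had the lowest slope within the rest, while pdia2, which overlapped, had among the highest.

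**Figure D3:**
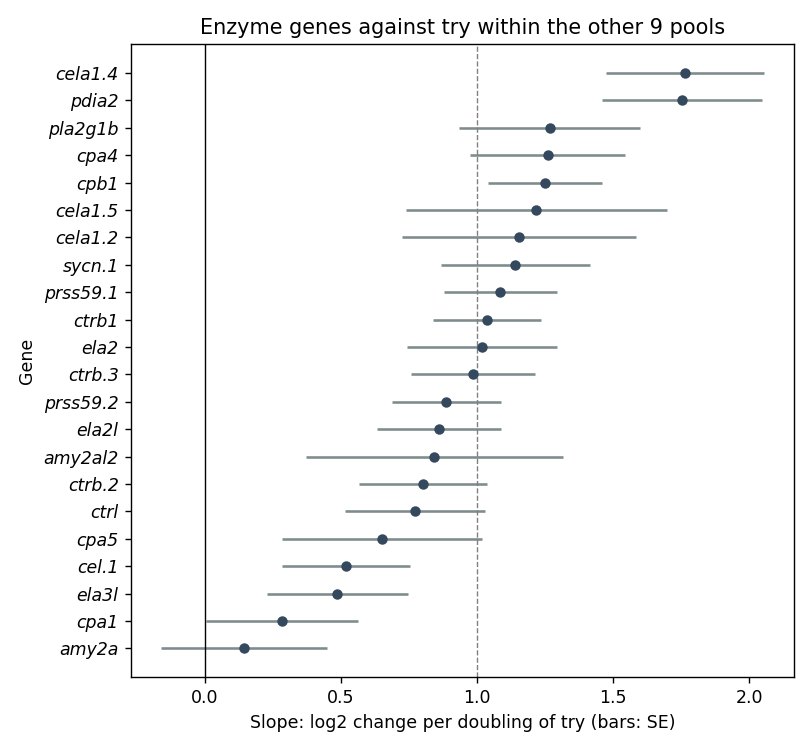
Slope of 22 of the 23 enzyme genes (vertical axis) on try within the 9 other pools, as log2 change per doubling of try (horizontal axis), with bars for 1 SE, a solid line at 0 and a dashed line at 1. The points plotted lie above 0, from amy2a at 0.14 to cela1.4 at 1.76.

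The 10 named genes of smallest p over the whole table included 5 of the list (cela1.4, cpb1, pdia2, prss59.1 and ctrb1) and the lipase gene cell (1.61, SE 0.29; limma adjusted p = 0.143). The smallest p belonged to si:ch73-44m9.5, another elastase-like gene in the gene names table (slope 1.77, SE 0.25; limma adjusted p = 0.0672). It passed without control 1 (slope 1.88; limma adjusted p = 0.0336) and without 3 ppm 3 (slope 1.75; limma adjusted p = 0.0334). In no other setting did it pass, and it was named because its p was the smallest. The steepest slope among these 10 was that of tm6sf2, a gene of lipid metabolism (4.02, SE 0.69; limma adjusted p = 0.125). Its counts were low, from 4.39 (control 1) to 49.0 (1 ppm 2), and those of the low-try pools, 41.2, 38.6 and 8.11, did not lie below them. The gene zgc:165423 was alike, with a slope of 2.45 (SE 0.41; limma adjusted p = 0.143) but 539.5 and 441 in control 3 and 1 ppm 3, against 131 to 508 in the 9. The tenth gene, si:dkey-266f7.9, had a slope of 1.48 (SE 0.28; limma adjusted p = 0.195).

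Genes of other roles were then read in the same 2 ways, first those nearest to the acinar cell. Of 13 tested regulators of acinar identity, 0 lay below or above (5.58% over all genes). The pancreatic progenitor and acinar factor gene ptf1a had 13.4, 16.4 and 14.7 in control 3, 1 ppm 3 and 3 ppm 1, within the range of 4.85 to 16.9 in the others. The acinar factor genes bhlha15 and rbpjl fell under the minimum mean (4.14 and 4.87), which leaves this list thinly measured in whole embryos. The median slope of the 13 was -0.23, and 0 had an unadjusted p under 0.05 with limma. In the endocrine pancreas, ins (insulin) had 226, 132 and 144.5, against 130.0 to 215. Both gcga (glucagon) and sst2 (somatostatin) overlapped too. Of its 20 tested members, 2 (10.0%) lay below and 0 above, beside 2.74% and 2.85% of all genes. The 2 were the transcription factor gene pax6b (62.7, 72.5 and 82.6, against 89.9 to 174) and the potassium channel subunit gene abcc8 (125.5, 118 and 130.5, against 138.9 to 195). List members named here and in the next paragraphs because they did not overlap were chosen after their values were seen. In whole embryos the cells that carried the values of these members, pancreatic or other, are not known.

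Some genes of the secretory pathway lay on the other side. Of 47 tested, 8 (17.0%) were higher in all 3 low-try pools than in any other, against 2.85% of all genes, and 1 lower. The 8 were the endoplasmic reticulum chaperone genes hsp90b1, canx and hyou1, the disulfide isomerase gene pdia4, the glycosylation subunit gene ddost, the retention receptor gene kdelr2a and the stress-induced genes manf and creld2. The gene pdia4 had 258, 333.5 and 274 in control 3, 1 ppm 3 and 3 ppm 1, against 142 to 205 (median 178), and hsp90b1 had 864, 991 and 824, against 518 to 778 (median 568). The translocon gene sec61a1 was the lower one, by a gap of 1.00 times. Within the 9 pools 37 of the 47 slopes were positive, with a median of 0.22, beside 9244 of 18389 over all genes. With limma 2 had an unadjusted p under 0.05, a share no higher than the 7.46% over all genes. These were dnajc3a (1.26, SE 0.26; limma adjusted p = 0.258) and tmed2 (0.54, SE 0.22; limma adjusted p = 0.632). By diet, the list's median log2 change from control was 0.08, -0.18 and -0.15 at 1, 3 and 10 ppm. With limma 0 of its genes passed, and the part of diet in the 8 genes was not tested.

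Of 41 tested intestine genes 0 lay below or above, and of 55 hepatocyte genes 1 below and 0 above. Both counts are near the shares over all genes (2.74% below and 2.85% above). In the intestine, the enterocyte genes fabp2 (2777, 3558 and 3191, against 1263 to 3698) and vil1 (839, 803 and 1060, against 526 to 1358) overlapped between the groups. The hepatocyte gene below was hgd of tyrosine breakdown (712, 687 and 780.5, against 814 to 1158). The liver fatty acid binding gene fabp10a had 4237, 3480 and 4507, against 3826 to 5903. Within the 9 pools, however, 47 of the 55 hepatocyte slopes were negative, with a median of -0.45. Of these 16 had an unadjusted p under 0.05 with limma, all negative, where the share over all genes was 4.11%, and 0 passed adjustment. Examples were the glycogen phosphorylase gene pygl (-1.28, SE 0.31; limma adjusted p = 0.361), the complement gene c3a.1 (-0.99, SE 0.30; limma adjusted p = 0.518) and the fibrinogen gene fga (-1.04, SE 0.32; limma adjusted p = 0.550). The hepatocyte list medians of the low-try pools were spread out. On the log2 scale they were -0.06 in control 3, -0.50 in 1 ppm 3 and 0.36 in 3 ppm 1, against -0.15 to 0.38. Within the 9, the highest were 0.38 in 10 ppm 3 and 0.20 in control 1, the pools of lowest try. By diet, the list's median log2 change from control was -0.30, 0.25 and 0.11 at 1, 3 and 10 ppm. The slopes given here had no diet in the model, and genes that vary together do not count as separate evidence.

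Some proliferation and muscle genes were higher in the low-try pools. Of 55 DNA replication genes tested, 12 (21.8%) lay above and 0 below, beside 2.85% and 2.74% of all genes. The replication clamp gene pcna had 956, 1128 and 1230 in control 3, 1 ppm 3 and 3 ppm 1, against 408 to 855 (median 697), and the licensing factor gene cdt1 had 53.8, 62.0 and 47.9, against 15.2 to 36.4 (median 27.3). The library median of this list, as the log2 difference from each gene's median, was 0.27, 0.54 and 0.54 in these pools and -0.62 to 0.20 in the others. Of 56 muscle genes, 9 (16.1%, beside the same 2.85%) lay above and 0 below. Among the 9 were the myosin light chain gene myl1 (8744, 10835 and 8449, against 3732 to 7713), the skeletal actin gene acta1b (8307, 12262 and 10331, against 3057 to 7875) and the calcium-store gene casq1b (822, 906 and 843, against 551 to 673). Muscle list medians were 0.13, 0.23 and 0.13, against -0.52 to 0.08. The calcium pump gene atp2a1 of fast muscle overlapped (36682, 43344 and 44469, against 15166 to 44959), as did ckma. Within the 9 pools 32 of 55 slopes of replication genes were positive (median 0.10), and 2 had an unadjusted p under 0.05 with limma, both negative. Of the muscle slopes 48 of 56 were negative (median -0.41), and 3 had an unadjusted p under 0.05 with limma, 2 of them negative. Over all genes 9145 of 18389 slopes were negative, and neither list exceeded the 7.46% of all genes with an unadjusted p under 0.05 with limma. By diet, the median log2 change of the replication list from control was 0.19, -0.27 and -0.28 at 1, 3 and 10 ppm. Of its 55 genes 48, 12 and 12 were higher than in control, and 0 passed with limma. No 10 ppm pool is among the low-try pools, so the 2 sides also differ in diet. The part of diet in these counts, and of these tissues in the enzyme levels, was not tested.

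**Figure D4:**
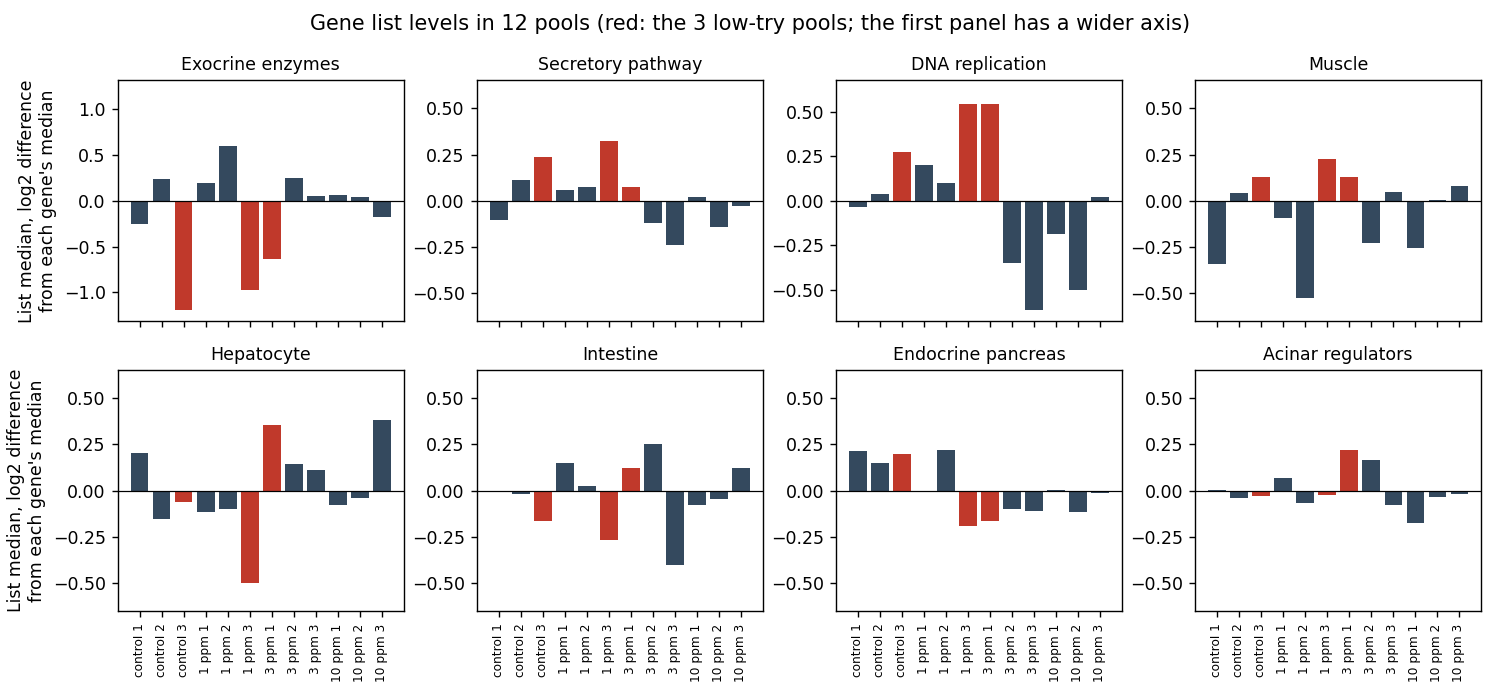
Median level of 8 gene lists in each of the 12 pools, as the log2 difference from each gene's median over the pools (vertical axes; horizontal axis, pools), with the 3 low-try pools in red. The red bars of the exocrine enzymes are the 3 lowest (-1.20, -0.98 and -0.63), those of DNA replication and muscle are above all others, and those of liver, intestine and the acinar regulators lie among the others or on both sides of 0.

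Of 44 genes of energy use and fasting, 6 (13.6%) lay below and 3 (6.82%) above, beside 2.74% and 2.85% of all genes. Below were igfbp1b, which encodes a binding protein of insulin-like growth factors (41.2, 39.8 and 15.5, against 58.7 to 245), ucp1, irs2a, pdk2a, foxo3a and sesn1. The uncoupling protein gene ucp1 had 4664, 4471 and 5175, against 5950 to 11475 (median 8335), and irs2a, an insulin receptor substrate gene, had 326, 294 and 349, against 426 to 545 (median 474). Above were cpt2 of fatty acid oxidation, asns of asparagine synthesis and sqlea. Within the 9 pools 16 of the 44 slopes were positive (median -0.22) and 4 had an unadjusted p under 0.05 with limma, a share near the 7.46% over all genes. In the clock (42 tested), glucocorticoid (25), photoreceptor (46), lens crystallin (48), ribosomal protein (71) and gut hormone (12) lists 0 members lay below or above, where the share over all genes was 5.58%, and of 14 erythroid genes 1, alas2 of haem synthesis, lay above (195, 195 and 214, against 57.9 to 176). In the 9 pools 9 of 42 clock genes and 10 of 46 photoreceptor genes had an unadjusted p under 0.05 with limma, beside 7.46% of all genes. The slope of per1b itself was 3.80 (SE 1.73; limma adjusted p = 0.679), and these counts do not separate clock state from try level. Of those 10 photoreceptor genes 9 had a negative slope, as did 31 of all 46, and 0 genes of these lists passed adjustment. With diet in the model 16 genes of the whole table passed, and of these arntl2 was in the clock list (slope -2.42; limma adjusted p = 0.0459). The smallest adjusted p of the 16 was that of nfil3-2 (slope -3.07; limma adjusted p = 0.00207), outside that list. Also among the 16 and outside it was cipcb (slope 2.09; limma adjusted p = 0.0459).

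**Figure D5:**
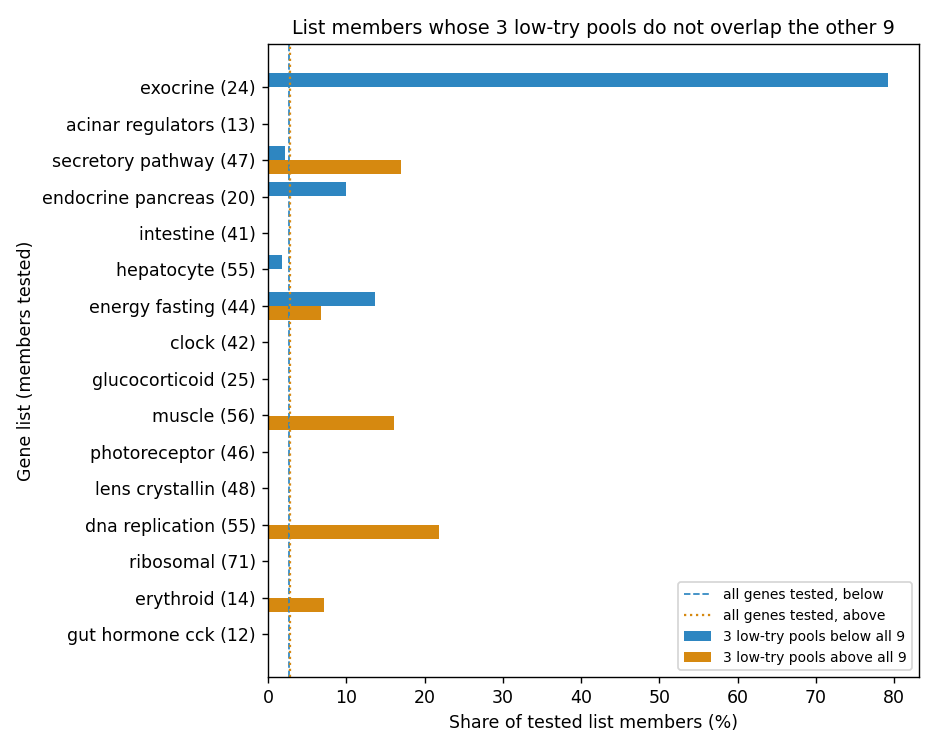
Share of the tested members of each of 16 gene lists (vertical axis, number tested in brackets) whose 3 low-try pools lay below (blue) or above (orange) all other 9 pools, in percent (horizontal axis), with dashed and dotted lines at the shares over all genes (2.74% and 2.85%). The exocrine list has 79.2% below, and DNA replication, secretory pathway and muscle have 21.8%, 17.0% and 16.1% above.

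Over the whole table, the 15 named genes of widest gap below the other 9 pools had gaps of 1.36 to 1.62 times and included 4 enzymes of the list (amy2a, cel.1, ela2l and ctrb1). The widest was that of slc1a7b, a glutamate transporter gene, with 6.27, 4.68 and 8.11 in control 3, 1 ppm 3 and 3 ppm 1, against 13.7 to 23.7. At that level counting error is large. The astacin protease gene c6ast3 had 92.3, 52.6 and 67.1, against 143 to 214 (median 159). Also among them were igfbp1b, the apolipoprotein D gene apoda.2 (1621, 2000 and 2159, against 3049 to 5982), the pro-apoptotic gene bbc3 (78.0, 64.4 and 87.7, against 121 to 164.5), the glutamate receptor gene grm6a, cnih2 and amn1. The remaining 3 were zgc:92511 (ENSDARG00000077058, a symbol that the files also give to cela1.5; 30.5, 42.1 and 31.0, against 60.3 to 185), si:ch73-264p11.1 and si:ch211-232b12.5.

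The 15 named genes of widest gap above had gaps of 1.28 to 1.72 times and included 0 enzymes of the list. The widest was that of sqlea, a gene of cholesterol synthesis, with 51.1, 58.5 and 61.2 in control 3, 1 ppm 3 and 3 ppm 1, against 6.77 to 29.4 (median 14.1). Also among them were creld2, fkbp9 (177, 160 and 156, against 51.5 to 116), calub and the folding sensor gene uggt1 (104.0, 115 and 108, against 53.3 to 81.1). Further genes were cdt1, the histone gene h2afx, the spermidine synthase gene srm (149.7, 180.2 and 136, against 64.1 to 104), the splicing gene snrpd3 and the mitochondrial import gene chchd4. The others were the troponin gene tnni1c, rab3il1, zgc:86709 (485, 681 and 486, against 143 to 302), zgc:110366 and zgc:153115. With a gap of at least 1.2 times, 59 genes lay below and 31 above.

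Diet was tested as the labels give it, over all 12 pools. The mean scaled count of try was 18219 ± 8208 (SD, n = 3) without mercury and 22343 ± 11290 with 1 ppm. It was 20768 ± 6115 with 3 ppm and 22949 ± 3475 with 10 ppm. The groups overlapped, and the spread within control and 1 ppm, each with 1 low-try pool, was larger than any difference between means. The log2 changes from control were 0.26, 0.25 and 0.43 at 1, 3 and 10 ppm (SE 0.43; limma adjusted p = 1.00, 0.853 and 0.884). For ctrb1 they were 0.31, 0.22 and 0.44 (SE 0.43; limma adjusted p = 1.00, 0.874 and 0.884). Without control 3 the changes of try were -0.12, -0.13 and 0.0494 at 1, 3 and 10 ppm. Without 1 ppm 2 the change at 1 ppm was -0.10, so its direction rested on either pool.

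Of the 24 exocrine genes 0 passed at any dose with limma, where 0 (0.0%), 3 (0.0163%) and 0 (0.0%) of all genes passed at 1, 3 and 10 ppm and 3 (0.0163%) over the 4 diets together. With an unadjusted p under 0.05 there were 1, 0 and 0 exocrine genes, and 361, 1912 and 1050 of all genes. With limma-voom 0, 2 and 0 genes passed in all. The genes that passed were fast muscle myosin genes and no enzymes. The list's median log2 change was 0.34, 0.25 and 0.31, with 23, 22 and 23 of 24 members higher than in control, beside medians of -0.01, -0.00 and 0.01 over all genes. The 3 contrasts share the control pools, of which control 3 had the lowest enzyme levels. Without control 3 the medians were -0.10, -0.13 and -0.03.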

How the data were processed

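RNA from 12 pools of 5 embryos was sequenced. The submitters' processing notes name TopHat, Cuffnorm, cutadapt, FastQC and CASAVA 1.8.2, with the build Zv9. Settings and gene annotation: not given in the sources used here. Scaled counts, in 1 deposited table, are a signal that the authors divided by a size factor for each library, read from the values: 98.1% to 98.7% of the low values above 0 were whole multiples of 1 step per library, within 0.02 steps. Higher values were not checked in this way. The deposited FPKM table, made by the authors, was used for levels between genes and as an alternative. Because the values were scaled, a count test was not used.

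limma 3.58.1 (R 4.3.3) took log2(value + 1) of 18390 genes, those whose mean reached 10, with trend and robust moderation, two-sided, with Benjamini-Hochberg adjustment over all genes at 0.05. One fit covered diet in all 12 libraries. The other covered the slope on log2(try + 1) in 9 libraries. Both were run on simulated data with larger diet changes and slopes than those reported for the enzymes. That run therefore does not show what the fits recover at the sizes seen here. The 3 low-try libraries were set against the others by values alone: a gene lay below or above when its 3 values did not overlap the other 9. Gaps are ratios of the nearest libraries, each value + 1. Fold changes on the log2 scale understate those of low genes.

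Named genes were the exocrine list (per-library values of its less abundant members were chosen after they were seen), the 15 widest gaps in each direction with a symbol, the 10 smallest slope p, markers and the libraries nearest the threshold. One member of the exocrine list is included in the counts and medians, but its own values are not reported here. The libraries, the 16 gene lists and the rules were chosen with earlier results of these data known. The files gave symbols for 20495 genes and a gene names table gave them for 1553 more; ctrb.2, ctrb.3, the cela1 genes, amy2al1, amy2al2 and sycn.1 are named from that table. Gene order is from RefSeq (GRCz12tu). Alternatives were other filters, pseudocounts, FPKM, TMM factors, covariates, predictors, a replicate block, leaving out libraries, and, chosen after seeing the data, limma-voom on recovered fragments. Python 3.11.15, pandas 2.3.3 and matplotlib 3.10.9 were used.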

Additional observations from a re-analysis of the deposited data

How the results depend on the processing

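Leaving aside the omission of single libraries, 117 recomputed counts and medians stayed within tolerance (1.5 times for counts, 0.599 log2 for diet medians, the spread within diets, and the median SE for the slope median), 7 moved, and 6 single-gene values reversed. Some of the 117 could not have moved. Choosing by ctrb1 picked the same 3 libraries, and the exocrine medians do not change when the filter is dropped. The number 117 is therefore no measure of how firm the results are. The count at 10 ppm was 1 with FPKM under either pseudocount, not 0. Over the 4 diets the count was 6 without the 3 low-try libraries, not 3. The diet tolerance is wide: without those 3 libraries the exocrine medians were 0.43, 0.18 and -0.03 at 1, 3 and 10 ppm, and with try as a covariate 0.05, 0.01 and -0.07. The slope called 16 genes with diet and 1 with per1b as a covariate, none of them in the exocrine list; 1 of the 16, arntl2, is in the clock list. With a gap of at least 1.2 times, 59 genes lay below and 31 above. Slopes that reversed were those of cpa1 (-0.11 with diet, -0.30 without the 2 libraries farthest from the median of try), cel.1 (-0.0430 without those 2) and amy2a (-0.12 with diet, -0.11 without those 2). With try as a covariate ctrb1 had -0.0299 at 3 ppm. The cause of these changes was not tested.

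Leaving out each library in turn, 3 to 17 genes passed at 3 ppm, 0 to 41 at 10 ppm and 3 to 9 over the 4 diets; 17, 41 and 9 were without control 1, and the last count was 7 without 3 ppm 1 and 5 without 3 ppm 3. At 1 ppm 0 passed each time. The slope called 0 to 12 genes, 12 without control 1 and 1 each without 3 ppm 3 (si:ch73-44m9.5) and 10 ppm 1 (cela1.4). The exocrine slope median was 0.92 to 1.08, and the slope of amy2a was -0.28 (without control 1) to 0.55, that of cpa1 0.0322 (without 1 ppm 2) to 0.419. Exocrine diet medians were -0.10 to 0.77, -0.13 to 0.63 and -0.03 to 0.69. Log2 changes at 1, 3 and 10 ppm were -0.12 to 0.70, -0.13 to 0.57 and 0.0494 to 0.753 for try, and -0.0686 to 0.72, -0.16 to 0.57 and 0.0617 to 0.792 for ctrb1, the lowest in each case without control 3. Without 1 ppm 2 the 1 ppm changes were -0.10 and -0.0464. Genes below numbered 854 without control 3, 761 without 1 ppm 3 and 1759 without 3 ppm 1, genes above 989, 713 and 1817, and 20 exocrine genes lay below each time. Leaving out a low-try library can only keep or raise such counts, so they are no check on the contrast.

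Deviations of same-numbered libraries had correlations of -0.23 to 0.47, with 6 of 18 over 0.1. For different numbers they were -0.56 to 0.27, with 11 of 36 over 0.1. These values cannot show whether some numbers mark pairs, and the main fits used no pairing. With the replicate block 0, 3 and 0 genes passed by dose, 4 over the 4 diets and 0 for the slope, with an exocrine slope median of 0.82. The planned count test on recovered reads was not run, because some values lay below 1 step. With the list mean as predictor no list median was computed, since the list would enter both sides. Depth limits genes of low count, such as slc1a7b, grm6a, creld2 and ptf1a, the most, and 3 libraries per diet limit the diet comparisons.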
